A study of Homo sapiens with 3 samples.

Results

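The Kruppel-like factors are a family of transcription factors that share a block of zinc fingers at the C terminus, and 10 of them (KLF2, KLF3, KLF4, KLF5, KLF6, KLF7, KLF9, KLF10, KLF11, and KLF13) were read in THP-1 macrophages treated with imiquimod (IMQ) with or without DMD. The members were all array probes for transcripts whose gene name in the scanner files was among those 10 symbols. This gave 16 probes of 58201 in all, or 10 gene names of 43317. THP-1 cells grow from a human leukemia of the monocyte lineage, and in all 3 groups they had been differentiated to macrophages with PMA (100 ng/ml for 24 to 36 h) and rested overnight in fresh medium. The Ctrl group received neither compound, the IMQ group received IMQ, an agonist of Toll-like receptor 7, and the third group (IMQ+X in its title) received IMQ after a pretreatment. The pretreatment was read here as DMD, a small benzenoid found in a medicinal fungus, because the study names no other compound for this series. The titles give a time of 4 h for all groups, and the dose was not given in the sample descriptions. The study's methods describe a longer exposure to IMQ for its THP-1 experiments, so the time on the arrays rests on the titles. RNA of each group was hybridized to 1 one-color array, so the model is 1 leukemia line with 1 sample per condition, and no difference here has a replicate check.

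Kruppel-like factors bind GC-rich DNA, with the CACCC box and the GC box as their known motifs, and act on many of the same promoters as the related SP factors. Their N-terminal parts differ and decide the cofactors they recruit. KLF2, KLF4, KLF5, KLF6, and KLF7 recruit acetyltransferases to many of their targets, KLF9, KLF10, KLF11, and KLF13 bind the corepressor SIN3A, and KLF3 binds the corepressor CtBP. In monocytes and macrophages, KLF2 is known to restrain NF-κB activity, KLF4 takes part in monocyte differentiation, and KLF6 is known to favor inflammatory gene expression.

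The KLF4 probe is shown because the largest difference among the members rests on it. It lies at chr9:110248049-110248108 on the minus strand of hg19, the build of the array design, and the capitals mark 2 cysteine codons and 1 histidine codon at the spacing of a zinc finger.

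KLF4 array probe: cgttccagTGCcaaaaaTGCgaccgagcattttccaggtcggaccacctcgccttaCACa

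KLF4 was the only member with this spacing in its probe. The probe therefore reads coding sequence of the conserved domain, and whether it also captures RNA of another family member was not tested. The RefSeq promoter windows (250 bases before an annotated start, GRCh38.p14) held 13 windows for 8 of the members. The windows of KLF4 (chr9:107489770-107490019, minus strand) and of the downstream start of KLF5 (chr13:73058755-73059004, plus strand) are shown because these members differed in opposite directions after IMQ. Capitals mark the family's own motifs, the GC box GGGCGG and the CACCC box, read on both strands, and no 2 capital runs overlap.

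KLF4 promoter: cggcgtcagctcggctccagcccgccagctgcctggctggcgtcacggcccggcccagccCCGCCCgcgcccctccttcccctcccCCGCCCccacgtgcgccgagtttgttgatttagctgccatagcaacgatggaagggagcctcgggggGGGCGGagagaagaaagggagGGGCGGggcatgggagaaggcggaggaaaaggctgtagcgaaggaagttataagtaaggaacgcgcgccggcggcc

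KLF5 promoter: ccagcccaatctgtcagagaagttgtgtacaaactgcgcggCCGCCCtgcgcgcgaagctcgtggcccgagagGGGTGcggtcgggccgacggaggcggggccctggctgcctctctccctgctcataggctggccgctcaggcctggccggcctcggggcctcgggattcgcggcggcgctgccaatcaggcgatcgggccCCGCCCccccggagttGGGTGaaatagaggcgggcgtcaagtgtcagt

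The KLF4 window held 4 GC boxes and 0 CACCC boxes, while the KLF5 window held 2 of each. A GC box was present in 8 of the 13 member windows, against 42.6% of the 35116 windows of all genes. A CACCC box was present in 6, against 54.7%. The core of the cAMP response element, TGACG, was found in 4 member windows, including both shown above, against 21.2% of all windows. The E-box CACGTG was also found in 4 windows, including that of KLF4, against 6.34%. The AP-1 motif TGANTCA was in 0 (6.57% of all windows) and the TATA box TATAAA was in 1 (10.7%), the upstream start of KLF5. KLF3 and KLF10 had no entry among these windows.

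The share of probes well above background was 66.6% in IMQ, 71.9% in IMQ+DMD, and 72.0% in Ctrl, and 0 spots were saturated. All arrays were on 1 slide, and their place on the slide and the condition cannot be told apart. Of the macrophage markers on the array (CD14, CSF1R, ITGAM, SPI1, CD163, and MSR1), 6 of 6 passed the scanner's background test on each array. Their median difference after IMQ was -0.49. CD163 (-1.22), CD14 (-0.71), MSR1 (-0.61), CSF1R (-0.38), and ITGAM (-0.22) were lower, and SPI1 was at 0.04. For MSR1, 1 of 3 measured probes was past 2-fold lower. Of 12 markers of other cell types, 9 passed the background test on each array, with log2 intensities between 5.19 and 11.3, and EPCAM and COL1A2 were above it on 0. KRT5 was above it in Ctrl and IMQ+DMD only and was at least 2.16-fold higher with IMQ+DMD than with IMQ, where MS4A1 was 0.92 log2 units higher. The part of these markers in the results was not tested. The response to IMQ was present: TNF, IL6, CXCL8, and NFKBIA were higher after IMQ by 2.95 to 6.16 log2 units.

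Of the 16 member probes, 12 passed the background test on all 3 arrays, 2 on some, and 2 on none, and none of their spots carried an outlier mark. All levels below are log2 of the quantile-normalized intensity, and each gene is read from its brightest probe. Each difference is given with a technical SD, taken from probes spotted 10 times at the same brightness. That SD covers noise within an array and not the spread between cultures. In bulk RNA, a change in the number of cells and a change in RNA per cell cannot be told apart.

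After IMQ, 2 of the 10 members were at least 2-fold higher than in Ctrl (KLF5 and KLF10), 1 was at least 2-fold lower (KLF4), and 7 lay within 2-fold. Over all genes, 4.17% were higher and 3.59% were lower by that measure, of 31851 measured. The median difference was 0.05 for the members and -0.02 for all genes, with 5 members above 0 and 5 below. Both medians are set by the scaling: the median of the members was -0.38, and that of all genes -0.51, when the arrays were not normalized, and they were -0.57 and -0.70 under spike-in scaling. After IMQ+DMD compared with IMQ, 0 members were 2-fold higher and 0 were 2-fold lower (all genes, 1.19% and 1.25% of 31701), and the differences ran from -0.50 to 0.20, or to 0.53 (KLF4) under spike-in scaling. The median of all genes was 0.29 under that scaling. Compared with Ctrl, the IMQ+DMD array again gave KLF5 and KLF10 higher and KLF4 lower (all genes, 3.04% and 4.83% of 33707). Both IMQ comparisons share the IMQ array, and both Ctrl comparisons share the Ctrl array.

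**Figure D1:**
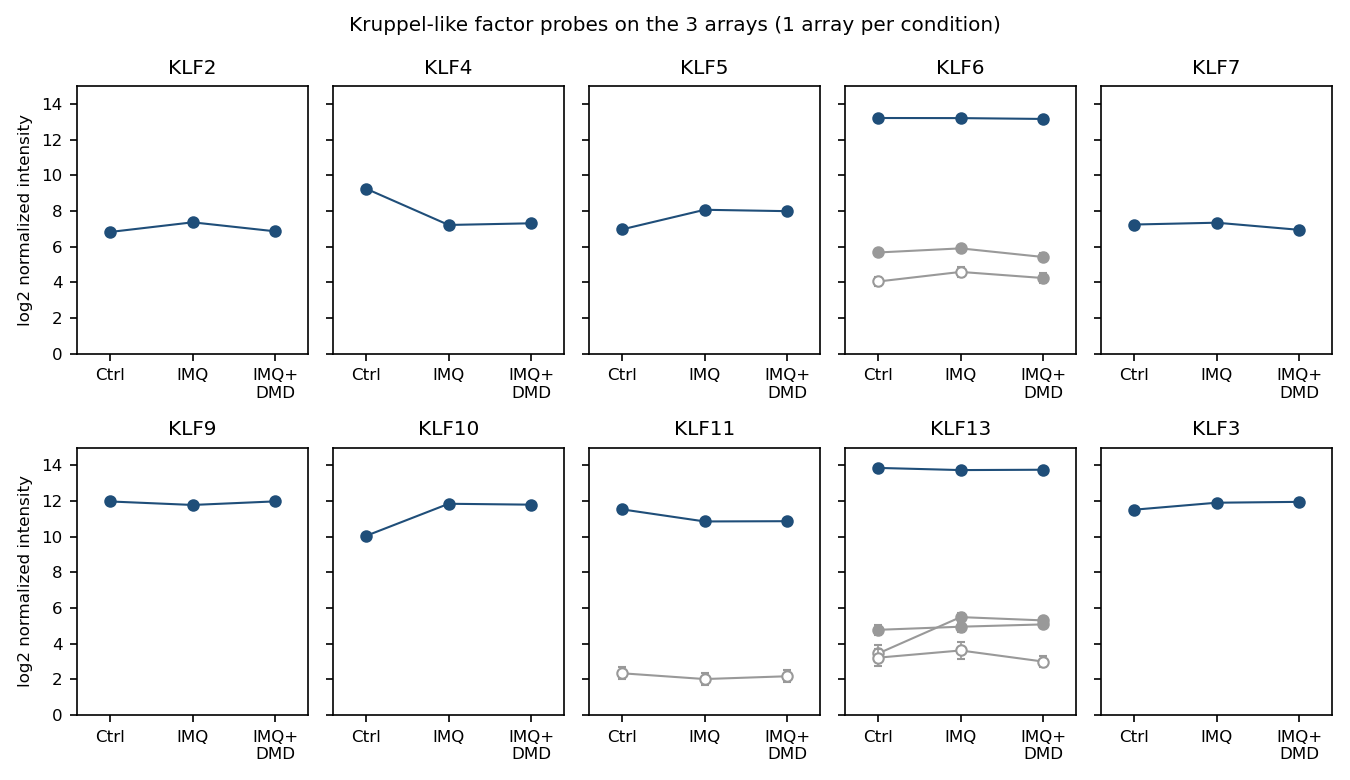
Log2 normalized intensity (y axis) of every member probe on the Ctrl, IMQ, and IMQ+DMD arrays (x axis), 1 panel per gene, with the brightest probe in blue and further probes in gray. Open circles are spots not well above background, and bars are the technical SD, often smaller than the symbol. KLF4 steps down and KLF5 and KLF10 step up from Ctrl to IMQ, and the IMQ+DMD points of these genes lie near the IMQ points.

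KLF4 is a factor of monocyte differentiation and one of the reprogramming factors of stem cell biology. Its log2 level on the Ctrl array was 9.24, against 7.21 with IMQ and 7.30 with IMQ+DMD. The Ctrl array stood apart, and the treated arrays lay close together. The difference between IMQ and Ctrl was -2.03 ± 0.11 (technical SD), or 4.09-fold lower, and 106 genes of 31851 (0.333%), KLF4 among them, were lower by as much. IMQ+DMD differed from IMQ by 0.09 ± 0.14 and from Ctrl by -1.94 ± 0.11. The first of these was within the technical SD only with quantile or normexp values, and was 0.29 at the 75th percentile, 0.31 when the arrays were not normalized, and 0.53 under spike-in scaling. Compared with the median of all genes, it was 0.24 in each of these last settings. The spot intensities before normalization were 725, 122, and 152 in the same order, so the lower level was already present in the scanner values. Over all scalings and filters tried, the difference between IMQ and Ctrl ran from -2.75 to -1.66, so that it passed 2-fold throughout.

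KLF5 is known as a factor of epithelial progenitors and of proinflammatory gene expression. Its log2 level on the Ctrl array was 6.96, against 8.06 with IMQ and 7.98 with IMQ+DMD, from a probe at chr13:73650979-73651038 (hg19). It was 2.14-fold higher after IMQ (1.10 ± 0.18), and 3.48% of all genes were at least as much higher. IMQ+DMD differed from IMQ by -0.08 ± 0.12, within the technical SD, and by 0.28 under spike-in scaling. The latter was -0.01 compared with the median of all genes in that setting. The call at 2-fold depended on how the arrays were scaled. The difference between IMQ and Ctrl was 0.59 without normalization, 0.40 with scaling to spike-in controls, and 0.81 with another background correction, all above 0 and below 2-fold. The median of all genes moved with the scaling as well. Compared with that median, KLF5 was 1.10, 1.11, and 0.84 higher in the same settings. The pixels of its IMQ+DMD spot were more uneven than those of 98.5% of spots of similar brightness.

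KLF2 is an inducer of quiescence that is known to restrain monocyte activation. Its log2 level was 6.82 for Ctrl, 7.36 with IMQ, and 6.85 with IMQ+DMD, so the IMQ array was the high one and the others differed by 0.04 ± 0.24. KLF2 was 0.54 ± 0.19 higher after IMQ than in Ctrl and -0.50 ± 0.19 after IMQ+DMD compared with IMQ. The latter was the widest difference between those arrays among the members with the quantile values, but was -0.06 under spike-in scaling, where that of KLF4 was the widest. The median of all genes was 0.29 in that setting. Compared with that median, KLF2 stood at -0.35 and KLF4 at 0.24, so KLF2 was again the wider. The direction after IMQ flipped with the scaling: the spot intensities before normalization were 137 in Ctrl and 136 after IMQ, and the difference was -0.19 with spike-in scaling. Its IMQ spot was more uneven than 98.0% of spots of similar brightness. Compared with the median of all genes, which moved with the scaling as well, KLF2 was 0.42 to 0.56 higher after IMQ and differed by -0.51 to -0.35 between IMQ+DMD and IMQ under every scaling and background correction tried.

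KLF6, the member known to favor inflammatory gene expression, was read by 3 probes. The brightest (chr10:3821387-3821446, hg19) had log2 intensities of 13.21, 13.20, and 13.15 in Ctrl, IMQ, and IMQ+DMD. The differences of -0.01, -0.05, and -0.05 (IMQ against Ctrl, IMQ+DMD against IMQ, and IMQ+DMD against Ctrl) were all within the technical SD of 0.06. They left it under other scalings, where IMQ against Ctrl was -0.34 if not normalized and -0.53 under spike-in scaling, and IMQ+DMD against IMQ was -0.21 at the 75th percentile. Compared with the median of all genes in each setting, these values were 0.17, 0.17, and -0.26. The second probe, whose bases match the RefSeq sequence across the annotated start with 28 bases before it and 32 from it, read 5.67, 5.90, and 5.41. Its difference between IMQ+DMD and IMQ was -0.48 ± 0.30. The third probe was well above background on the IMQ+DMD array only, and no fold is given for it.

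KLF7, known best for its part in neuronal development, read 7.23, 7.33, and 6.94. The difference between IMQ and Ctrl was 0.10 ± 0.14, and turned to -0.44 when the arrays were not normalized and to -0.62 under spike-in scaling. IMQ+DMD differed from IMQ by -0.40 ± 0.19, which turned to 0.04 under spike-in scaling. Compared with the median of all genes, these differences were 0.08 to 0.12 and -0.41 to -0.25 under every scaling tried.

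KLF10, first described as a gene induced early by TGF-β, is a SIN3A-binding repressor. Its log2 level rested at 10.05 in Ctrl and stood at 11.84 with IMQ and 11.80 with IMQ+DMD (probe at chr8:103661366-103661422, hg19). It was 3.47-fold higher after IMQ (1.80 ± 0.07), the largest positive difference among the members, and 387 genes (1.22%), KLF10 among them, were higher by as much. IMQ+DMD differed from IMQ by -0.05 ± 0.06, and from Ctrl by 1.75 ± 0.07. The first of these was -0.18 at the 75th percentile, -0.16 if not normalized, and 0.06 under spike-in scaling. Compared with the median of all genes, it was -0.23 in each of these settings. Under all scalings and filters tried, the difference between IMQ and Ctrl stayed between 1.23 and 1.86.

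KLF11, a close relative of KLF10 in the same SIN3A-binding group, was on the other side of 0. Its brightest probe (chr2:10194646-10194705, hg19) read 11.53, 10.85, and 10.87 in Ctrl, IMQ, and IMQ+DMD. The difference between IMQ and Ctrl was -0.68 ± 0.07, and that between IMQ+DMD and IMQ was 0.01 ± 0.07. The latter ran from -0.10 to 0.14 over all scalings and filters tried. The Ctrl level was again the one that stood apart. KLF11 passed 2-fold without normalization (-1.07) and with spike-in scaling (-1.26), where the median of all genes was also lower. Compared with that median it stood at -0.69 to -0.55 under every scaling tried. A second KLF11 probe was not well above background on any array.

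KLF9, induced by glucocorticoid and thyroid hormone in many tissues, read 11.97, 11.78, and 11.98. The IMQ array was the low one, by -0.19 ± 0.06 against Ctrl and with 0.20 ± 0.06 between IMQ+DMD and IMQ, and Ctrl and IMQ+DMD differed by 0.00 ± 0.06. This order rests on the quantile values. If not normalized, the same differences were -0.57, 0.10, and -0.47, with Ctrl as the array that stood apart. Compared with the median of all genes in that setting, they were -0.05, 0.03, and -0.15.

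KLF13, known in T cells as an activator of CCL5, had 4 probes. The brightest (chr15:31669908-31669967, hg19) read 13.86, 13.73, and 13.75, with differences of -0.12 ± 0.06 after IMQ and 0.02 ± 0.06 between IMQ+DMD and IMQ. The first was 0.02 at the 75th percentile and -0.61 under spike-in scaling, or 0.10 and 0.09 compared with the median of all genes. The second ran from -0.15 to 0.10 over all scalings and filters tried. The other probes lie 15.9 to 26.4 kb further along the same strand and carry other transcript accessions. The probe for AK127052, 25.1 kb beyond, was not well above background in Ctrl (3.45) and was so after IMQ (5.49) and IMQ+DMD (5.31). It was at least 2.73-fold higher after IMQ (1.45 ± 0.52), a bound set by the dimmest signal well above background on the Ctrl array. Its spots were dim, with intensities before normalization of 13.5 in Ctrl and 34.9 after IMQ, so the bound is uncertain. The probe for ENST00000558225 read 4.78, 4.95, and 5.08, and that for ENST00000500533 was not well above background on any array. The gene name KLF13 thus covers probes with different readings after IMQ, though the one past 2-fold is the dim AK127052 probe.

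KLF3, the CtBP-binding member, read 11.51, 11.90, and 11.95. It was 0.39 ± 0.06 higher after IMQ and 0.44 ± 0.06 higher after IMQ+DMD than in Ctrl, with 0.05 ± 0.06 between the treated arrays. The last ran from -0.08 to 0.16 over all scalings and filters tried. With spike-in scaling the difference between IMQ and Ctrl was -0.18, and compared with the median of all genes it was 0.38 to 0.52 under every scaling tried.

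**Figure D2:**
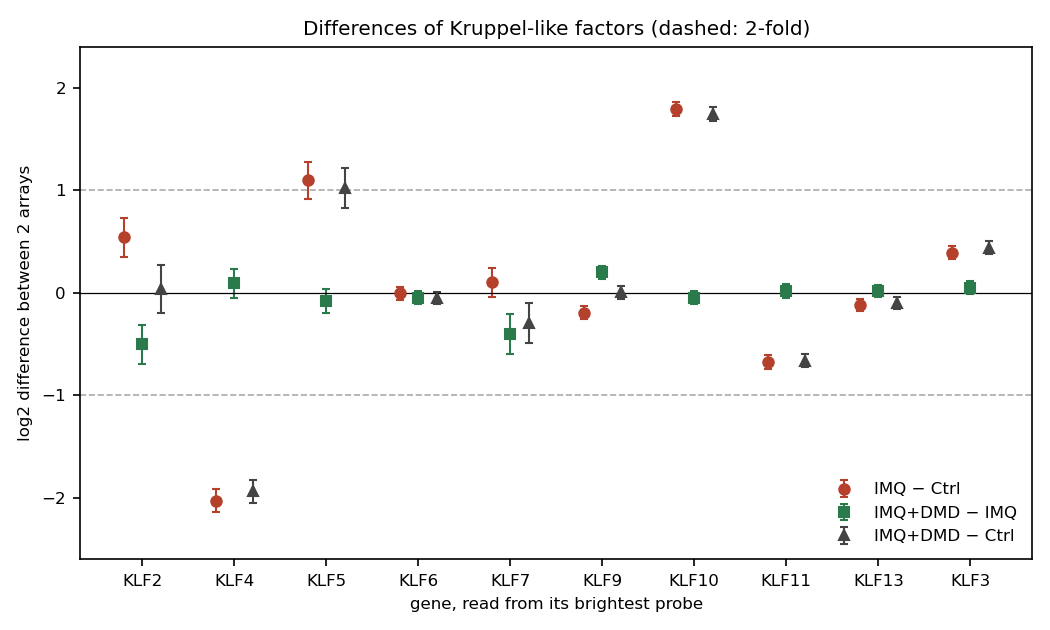
Log2 differences (y axis) of the 10 members (x axis) between IMQ and Ctrl (circles), IMQ+DMD and IMQ (squares), and IMQ+DMD and Ctrl (triangles), with bars for the technical SD and dashed lines at 2-fold. KLF4, KLF5, and KLF10 lie beyond 2-fold in both comparisons with Ctrl, and all squares lie between -0.50 and 0.20 with these quantile values.

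**Figure D3:**
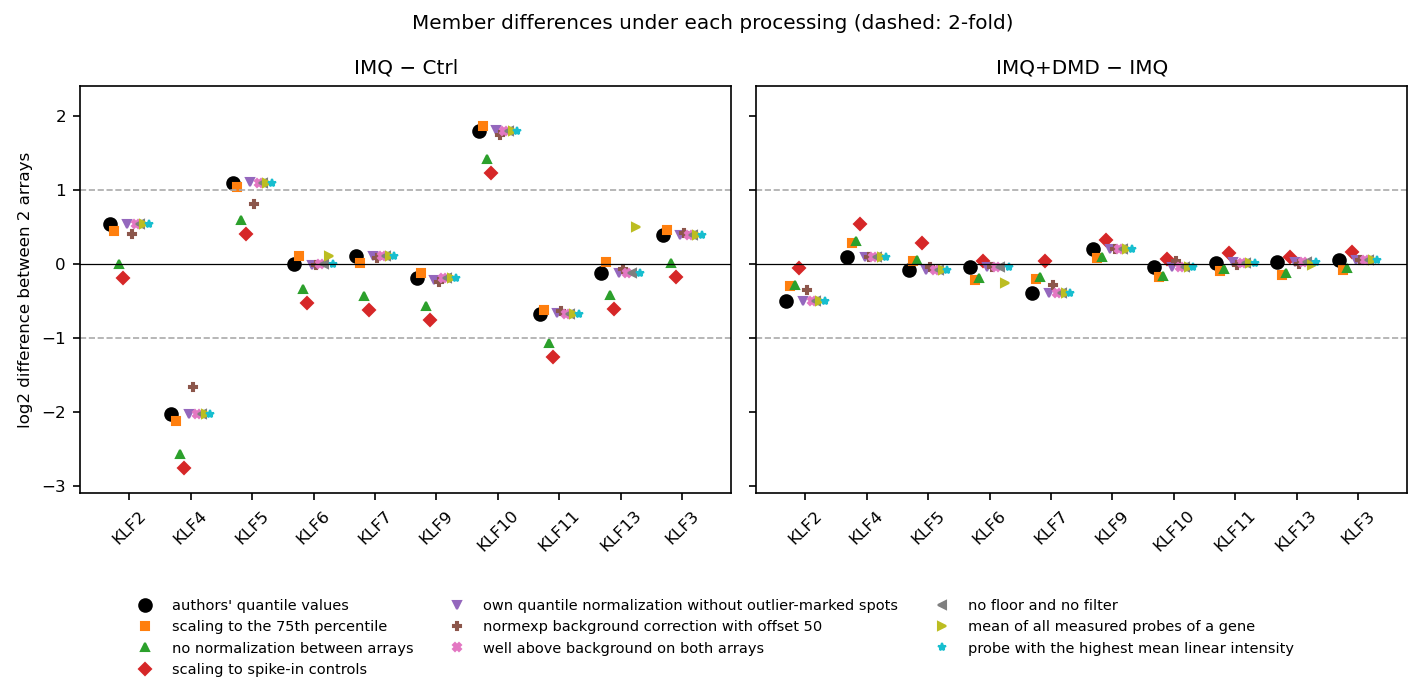
Log2 difference (y axis) of each member (x axis) between IMQ and Ctrl (left) and between IMQ+DMD and IMQ (right) under the reported processing (black circles) and the alternatives named in the legend, with dashed lines at 2-fold. KLF4 and KLF10 stay beyond 2-fold in the left panel, KLF5 does not, and scaling to spike-in controls moves all members down together there.

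By role, neither group of members moved one way after IMQ. Among the acetyltransferase-recruiting members, KLF5 was higher and KLF4 lower by 2-fold, with KLF2, KLF6, and KLF7 within it. Among the SIN3A-binding members, KLF10 was higher by 2-fold, with KLF9, KLF11, and KLF13 within it. The genes whose pattern over the 3 arrays was nearest to that of KLF10, among 29338 genes well above background throughout, were SRGN, CCNT2-AS1, and MAP3K8, at distances of 0.03 to 0.04 in the plane of the differences IMQ against Ctrl and IMQ+DMD against IMQ. Those nearest to KLF4 were MCM4 at 0.03, and FADS2 and DDIT4L at 0.10.

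The rest of the family was read next. Of the other KLF and SP genes, 0 of the 15 measured were 2-fold higher or lower after IMQ, with a median of -0.06. The widest were SP9 (0.78), KLF17 (0.64), SP3 (0.59), and KLF12 (-0.44). KLF15 was left out of this comparison because its spot on the brighter array, IMQ, was not well above background. After IMQ+DMD compared with IMQ, 0 of 16 passed 2-fold.

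The cofactors that the members recruit were all within 2-fold after IMQ (0 of 10, median -0.19). SIN3B, a relative of SIN3A, was 0.86 higher, and the corepressor CTBP2 differed by -0.84. The deacetylase HDAC1 and the acetyltransferase KAT2B differed by -0.56 and -0.55.

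The ERK5 kinase route, which induces KLF2 and KLF4 through MEF2 factors in endothelial cells, had 1 of 7 genes past 2-fold, MEF2C. It was lower, as were 3.59% of all genes by that measure. MEF2C read 13.82, 12.61, and 12.49, a difference of -1.21 ± 0.06 after IMQ and -0.12 between IMQ+DMD and IMQ. MEF2D (0.66), MAP3K2 (0.60), and MAP3K3 (-0.32) were within 2-fold, and the median was -0.07. Of 8 ubiquitin ligases known to act on family members, 0 passed 2-fold, with FBXO32 (0.73), SMURF1 (0.60), VHL (0.58), and SIAH1 (0.45) the widest. Their median was 0.39, against -0.02 for all genes. It was -0.05 if not normalized and -0.24 under spike-in scaling, where the medians of all genes were -0.51 and -0.70.

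Genes known as targets of KLF2 or KLF4 went both ways. THBD, the anticoagulant receptor thrombomodulin, read 13.24, 14.98, and 14.97 and was 1.75 ± 0.06 higher after IMQ. ZC3H12A, an RNase that degrades cytokine mRNAs, read 10.18, 12.95, and 12.80 and was 2.77 ± 0.07 higher. S1PR1, a receptor of lymphocyte egress, was well above background only in Ctrl and was at least 4.34-fold lower after IMQ, with a bound of -1.10 log2 units under another background correction. CD14, a coreceptor for lipopolysaccharide, was within 2-fold after IMQ (-0.71) and past it for IMQ+DMD against Ctrl (-1.21). NOS3 was -0.55 after IMQ and 0.49 between IMQ+DMD and IMQ. Of the 7 targets measured after IMQ, 2 were higher, 1 was lower, and 4 were within 2-fold, with a median of -0.51. Over all genes, 4.17% were higher and 3.59% were lower.

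The TGF-β route, which induces KLF10, had 1 of 7 genes higher and 2 lower after IMQ (all genes, 4.17% and 3.59%). The inhibitor SMAD7 was 1.23 ± 0.07 higher, or 0.84 if not normalized and 0.66 under spike-in scaling, both inside 2-fold. The medians of all genes in these settings were -0.51 and -0.70. The receptors TGFBR1 (-1.09 ± 0.12, and -0.88 with the other background correction) and TGFBR2 (-1.14 ± 0.06) were lower, the latter with 1 of its 2 probes past 2-fold. SMAD3 was -0.68 after IMQ and lay just past 2-fold below Ctrl with IMQ+DMD, a call lost with an own quantile normalization (-0.98) and with normexp (-0.87). Of 5 glucocorticoid-responsive genes, listed beside KLF9, only DUSP1 passed 2-fold after IMQ (3.65 ± 0.08), and PER1 was close below it (0.96). ZBTB16 differed by -0.86 between IMQ+DMD and IMQ and lay just past 2-fold below Ctrl with IMQ+DMD, a call lost at the 75th percentile (-0.87) and with normexp (-0.53). In the comparison of IMQ+DMD with IMQ, 0 genes of these lists passed 2-fold (all genes, 1.19% higher and 1.25% lower). TGFBR1 (-0.54) and CD14 (-0.51) were the next widest after ZBTB16.

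**Figure D4:**
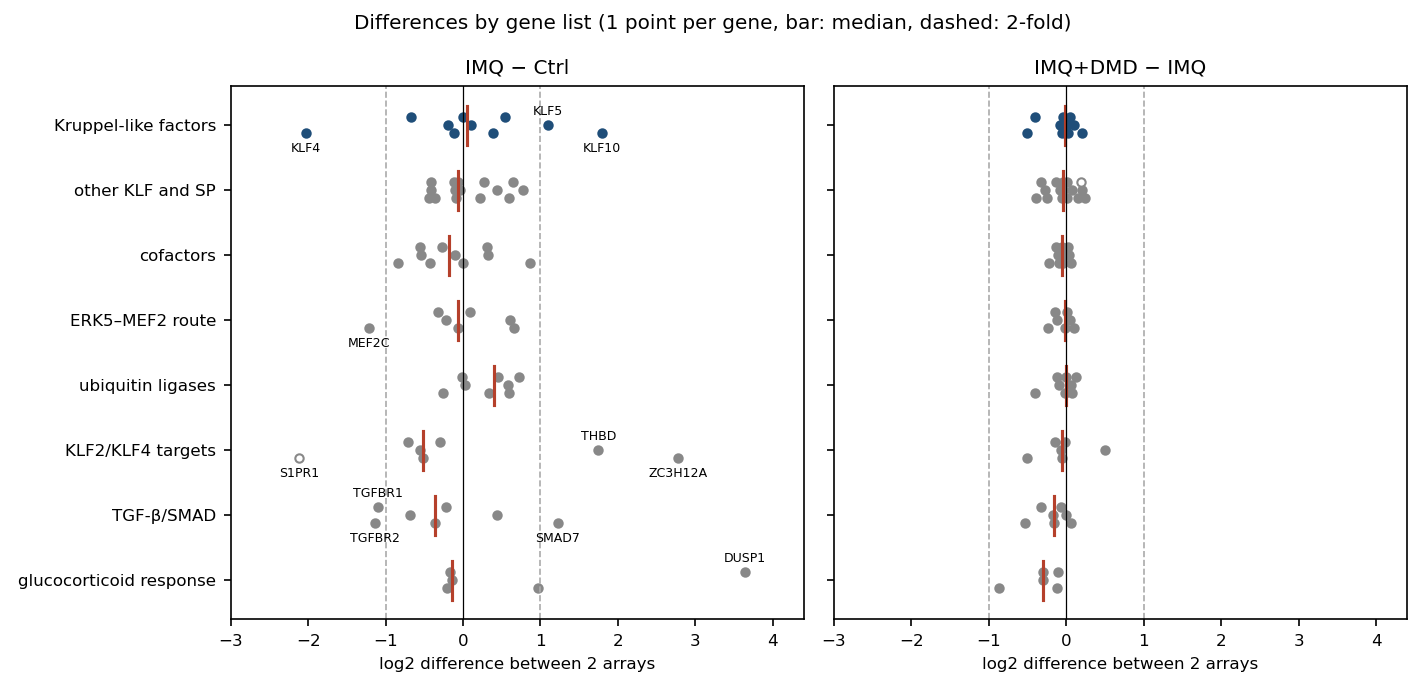
Log2 differences (x axis) of the members and of the 7 related gene lists (y axis) between IMQ and Ctrl (left) and between IMQ+DMD and IMQ (right), 1 point per gene, open where the value is a bound, with the list median as a red bar and dashed lines at 2-fold. Genes beyond 2-fold are named, and all of them are in the left panel.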

How the data were processed

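Total RNA of 3 THP-1 samples was hybridized to 1 one-color Cy3 array each. The authors deposited the scanner output (Feature Extraction 10.5.1.1), with an intensity per spot, the pixel statistics of each spot as a signal, and quality marks, and a table of raw and quantile-normalized intensity per probe. The raw intensity of that table equaled the scanner's within 0.1% for 57901 of 57901 probes with 1 spot. The deposited quantile-normalized values were used and converted to log2.

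The brighter array of a comparison had to be well above background for a probe to enter it. A dimmer spot was raised to the lowest log2 value well above background on its array (4.04 in Ctrl, 4.57 in IMQ, 4.08 in IMQ+DMD). A gene was read from the probe with the highest mean log2 value and was called at 2-fold. With 1 array per condition, no p-value was computed, and precision is limited by the number of arrays. The technical SD came from 300 probes with 10 spots (median SD 0.05, 0.05, and 0.04 on the 3 arrays).

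Named beside the members were the genes of each list past 2-fold, and up to 4 of a list with the largest differences. Members and lists were chosen with earlier results of these data known. Alternatives were the 75th percentile, no normalization, 8 spike-in probes, an own quantile normalization without outlier-marked spots, normexp with an offset of 50 (limma 3.58.1, R 4.3.3), other filters on dim probes, thresholds of 1.5-fold and 4-fold, and other rules for a gene's probe. Scripts used Python 3.11.15, numpy 2.4.6, pandas 2.3.3, and matplotlib 3.10.9, and the noise and call steps were tested on simulated data. Probe coordinates are hg19 as in the design, and promoter windows are RefSeq on GRCh38.p14. CD68 and LYZ were not analysed here.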

Additional observations from a re-analysis of the deposited data

How the results depend on the processing

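No paired analysis was possible because each condition had 1 array. Of 270 member values under the alternatives, 235 kept their direction and 186 stayed within the technical SD, and of the values called at 2-fold, 0 turned direction. These counts include many values that could not move. The brightest probe of every member was well above background on all arrays, so the other filters on dim probes left it unchanged. The rule of highest linear intensity picked the same probes, and the mean of all probes could change only KLF6 and KLF13. The median difference of all genes moved with the scaling, to -0.51 (IMQ against Ctrl), 0.07 (IMQ+DMD against IMQ), and -0.32 (IMQ+DMD against Ctrl) without normalization, and to -0.70, 0.29, and -0.29 with spike-in scaling. Across all genes, the counts of higher and lower genes for IMQ against Ctrl were 1329 and 1143 as reported, 579 and 5156 when no normalization was applied, 446 and 8367 under spike-in scaling, and 589 and 611 with normexp. The comparison of IMQ+DMD with IMQ gave 376 and 396 as reported, 1251 and 193 with the 75th percentile, 1370 and 180 when no normalization was applied, 2936 and 98 under spike-in scaling, and 22 and 31 with normexp.

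The number of members higher after IMQ fell from 2 to 1 without normalization, with spike-in scaling, and with normexp, in each case in both comparisons with Ctrl, and to 0 at 4-fold in both. Over all genes, the number higher after IMQ fell from 1329 to 579, 446, and 589 in these settings, and to 289 at 4-fold. For IMQ+DMD against Ctrl, it fell from 1026 to 512, 547, and 527, and to 210 at 4-fold. The number of members lower rose from 1 to 2 without normalization, with spike-in scaling, and at 1.5-fold, in both comparisons with Ctrl, and was 0 at 4-fold for IMQ+DMD against Ctrl. Over all genes, the number lower after IMQ rose from 1143 to 5156, 8367, and 3392 in the same order. For IMQ+DMD against Ctrl, it rose from 1627 to 3401, 3145, and 3863, and was 219 at 4-fold. For the related lists (61 genes), only counts that changed by a factor of more than 1.5, or from or to 0, are given here. The number of genes higher after IMQ (4) was 13 at 1.5-fold and 2 at 4-fold (all genes, 3395 and 289). The number lower (4) was 8 without normalization, 15 with spike-in scaling, 7 at 1.5-fold, and 1 at 4-fold. Over all genes, the number lower in the same order was 5156, 8367, 3392, and 112, against 1143 as reported. For IMQ+DMD against IMQ, the number lower (0) was 1 with no floor and at 1.5-fold (all genes, 1515 and 1728). For IMQ+DMD against Ctrl, the number higher (4) was 10 at 1.5-fold and 2 at 4-fold (all genes, 3291 and 210). The number lower (7) was 1 at 4-fold (all genes, 219). The mean of all KLF13 probes was 0.50 after IMQ, against -0.12 for its brightest probe. Beyond the scaling and the thresholds, the cause was not tested. Dim probes, such as the further probes of KLF6 and KLF13, have technical SDs of 0.30 and above.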
